A study of Mus musculus with 50 samples.

Results

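Splicing factor genes were described in single hemogenic endothelial cells made from mouse embryonic stem cells (iHECs). They were taken as the rows of the expression table whose symbol starts with Srsf or Prpf and a digit, with Sf3a or Sf3b and a digit, or with Hnrnp, Snrp or U2af. This rule used names only and found 64 of 11879 rows, with 10 Srsf, 18 Hnrnp, 12 Snrp, 8 Sf3, 13 Prpf and 3 U2af genes. Splicing genes with symbols of another form, such as Hnrpdl, Hnrpll and Snrnp70, were not members and were given in separate lists.

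All 50 cells belonged to 1 group. They were C57BL/6 in strain and came from the iRunx1-ESC line, which carries a doxycycline-inducible Runx1 cassette in the Rosa26 locus. The study sorted them as CD31+CD41lowCD45-c-kit+CD201high, and polyA RNA of each cell was amplified as cDNA before sequencing. No untreated, uninduced or embryonic cells were analysed here. The labels name no culture or animal for a cell, so the 50 cells were treated as 1 sample without replicates, and every value below is a description with no test.

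Before an mRNA leaves the nucleus, the spliceosome removes its introns. Sm proteins form a ring on the small nuclear RNAs, U2AF and the SF3a and SF3b complexes recognise the end and the branch point of the intron, and the PRPF proteins assemble and activate the catalytic machine. SR proteins (Srsf) and hnRNPs bind the pre-mRNA itself and favour or oppose the use of individual splice sites. These genes are used by nearly all cell types, and mutations of several of them, Sf3b1, U2af1 and Srsf2 among them, are known in human myeloid neoplasms.

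Values are TPM, an abundance divided by transcript length and set to a common total, which allows genes to be compared within a cell. Where 3 values are given for a gene, they are its lowest, median and highest over the 50 cells. A gene was counted as detected in a cell when its value was above TPM 1. The columns of the table summed to between 942975 and 970894 TPM, and how deeply a cell was sequenced is unknown, because TPM does not carry it. A median of 6223.5 rows were above TPM 1 per cell. The cell titled 4-6 stood apart with 2400 such rows, since the next lowest cell had 4326 and the highest 8615. No pair of columns was identical. Pecam1 and Procr, which encode the sorting markers CD31 and CD201, and the endothelial gene Cdh5 were above TPM 1 in 50 of 50 cells, Kit was in 47, Runx1 in 43, and Ptprc, which encodes CD45, was listed at 0 in all.

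The splicing factor genes were broadly detected. Of the 64, 22 were above TPM 1 in all 50 cells, beside 7.15% of all rows. In at least 90% of cells, 41 members exceeded TPM 1, which is 64.1% of them, beside 19% of all rows. Only Hnrnpul2 exceeded TPM 1 in under 50% of cells, beside 46.8% of all rows. At other levels, the count in at least 90% of cells was 48 above TPM 0, 35 above TPM 5 and 34 above TPM 10, beside 25.9%, 15.4% and 13.8% of all rows. The count in under 50% of cells was then 1, 3 and 9, beside 40%, 53.3% and 58% of all rows. The median member was found in 96% of cells, against 52% for the median row.

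Much of this breadth went with level. The median TPM of the members had a median of 100.8, against 2.1 over all rows, and 32 members had a median TPM of 100 or more, beside 13.2% of all rows. Among rows of that level, 32 of 32 members and 95% of all rows exceeded TPM 1 in at least 90% of cells. Between a median TPM of 10 and 100, the count was 8 of 23 members, or 34.8%, beside 22.5% of rows. Under a median TPM of 10 it was 1 of 9 members, beside 0.187% of rows. This was Hnrnpa3, above TPM 1 in 48 cells and above TPM 10 in 22.

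**Figure D1:**
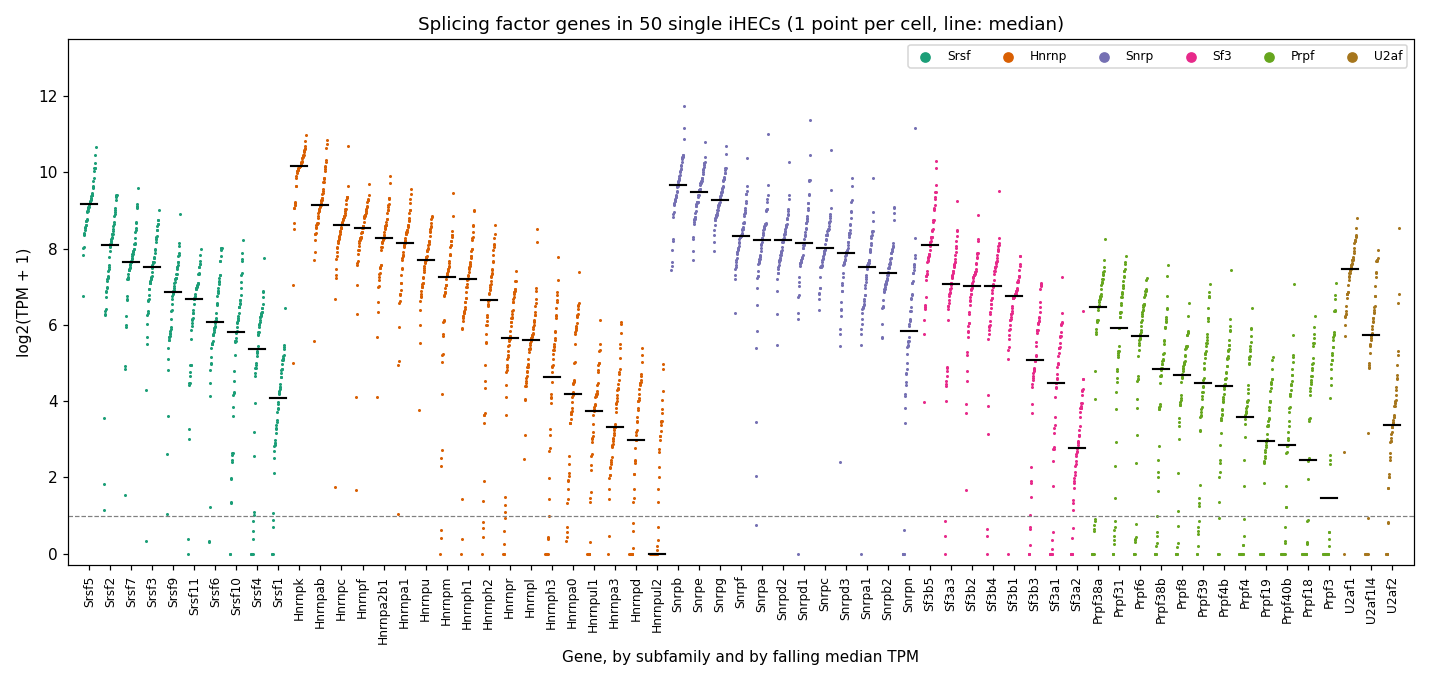
Each point is 1 of the 50 cells, the vertical axis is log2(TPM + 1), and 63 of the 64 genes are ordered by subfamily and by falling median, drawn as a black line. The dashed line marks TPM 1. The Snrp genes other than Snrpn sit high and close together, with medians from 162 to 818 TPM, while every Prpf gene drawn has points on the zero line.

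The small nuclear ribonucleoprotein genes (Snrp) had the highest levels. Their median TPM had a median of 290 over the 12 genes. All but Snrpn, 11 in number, exceeded TPM 1 in at least 98% of cells, beside 10.1% of all rows. Summed in each cell, the 12 genes carried 0.480% of the TPM of the table in the median cell, from 0.300% to 0.839%.

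The 7 genes of the Sm ring, the protein collar of the spliceosomal RNAs, were all above TPM 1 in 49 of 50 cells. Snrpb (chr2:130171414-130179403, minus strand of GRCm38), which encodes SmB, had lowest, median and highest values of 172, 818 and 3405 TPM. The same 3 values were 209, 709 and 1786 TPM for Snrpe (chr1:133603871-133610291, minus strand), which encodes SmE. For Snrpg (chr6:86371304-86379328, plus strand), which encodes SmG, they were 245, 622 and 1663 TPM. None of these 3 genes came near zero in any cell, and the highest cell was 6.80-fold above the lowest for Snrpg, 8.55-fold for Snrpe and 19.8-fold for Snrpb.

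The other ring genes lay lower. Snrpf spanned 78.0, 321 and 1321 TPM, and Snrpd2 spanned 43.7, 297 and 1227 TPM. Snrpd3 reached down to 4.27 TPM around a median of 235. Snrpd1 had a median of 283 TPM and a highest value of 2654 TPM, and was listed at 0 in 1 cell. Their products stand in equal number in the finished ring, while the mRNAs were unequal within a cell. The highest ring gene of a cell was 6.08-fold above the lowest in the median cell, with a range of 2.50-fold to 143-fold over values above 0. Snrpb was the highest of the 7 in 27 cells and Snrpe in 13, whereas Snrpd3 was the lowest in 22 and Snrpd1 in 12. Of the exonic bases of Snrpf, 85.4% are overlapped by 2 other genes, Ccdc38 on the opposite strand foremost, and whether the counting used strand is not stated, so reads of these genes may not be separated.

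Snrpn, which encodes SmN, a relative of SmB known from brain and expressed from the paternal chromosome only, stood apart from the other Snrp genes. It was above TPM 1 in 43 cells and listed at 0 in 6, with lowest, median and highest values of 0, 56.2 and 2304 TPM. The highest value was in cell 4-6, the cell with the fewest genes, and the second highest was 307 TPM. Snrpb was above Snrpn in 49 of 50 cells, and cell 4-6 was the exception. Without Snrpn, the Snrp genes carried 0.475% of TPM in the median cell. Of the exonic bases of Snrpn, 34.1% are shared with 3 other annotated genes, Gm38393 on the same strand foremost, so the level of Snrpn alone is uncertain.

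Proteins specific to the U1 and U2 particles were detected nearly as broadly. Snrpa, a protein of the U1 particle, had a median of 297 TPM and a lowest value of 0.696 TPM. Snrpc, which helps U1 bind the start of the intron, ranged over 82.4, 256 and 1547 TPM. Snrpb2, a U2 protein, ranged over 49.1, 162 and 548 TPM, and Snrpa1, its partner in U2, had a median of 184 TPM and was listed at 0 in 1 cell.

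**Figure D2:**
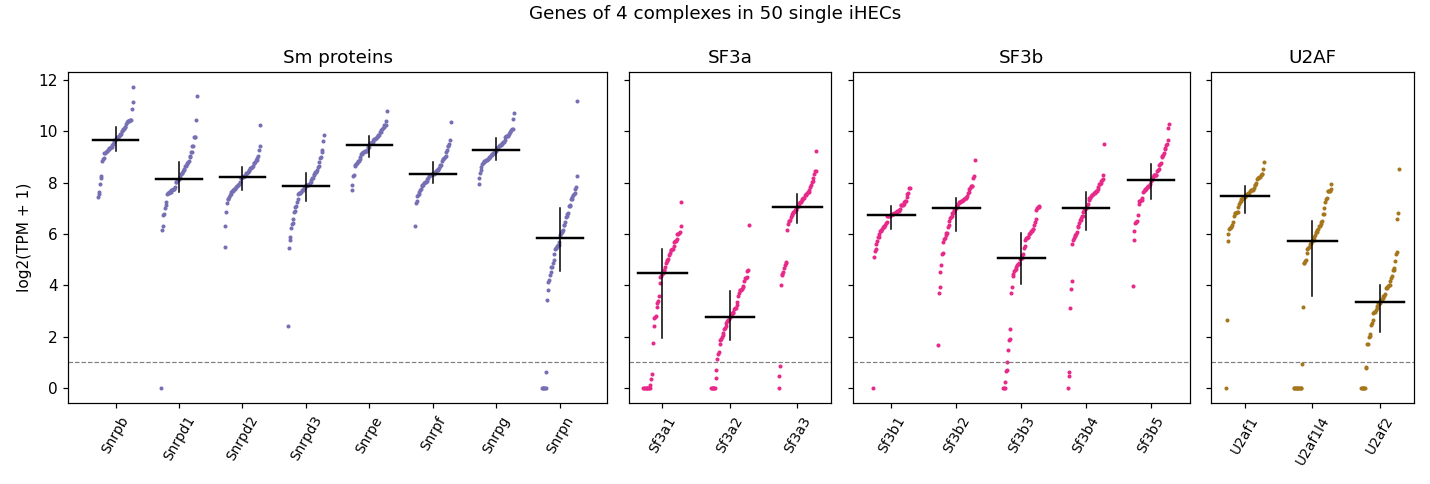
Each point is 1 of the 50 cells on a log2(TPM + 1) axis, shown by complex, with a horizontal bar at the median and a vertical bar over the quartiles. The ring genes keep above TPM 1 in nearly all cells, Snrpn has 1 cell far above the rest, and within SF3a and U2AF the genes sit at different levels, with medians of 133 TPM for Sf3a3 against 5.83 for Sf3a2 and of 176 for U2af1 against 9.28 for U2af2.

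U2AF marks the end of the intron as a pair of a small and a large subunit. U2af1 (chr17:31647081-31658892, minus strand), the small subunit that reads the AG, spanned 0, 176 and 444 TPM and was above TPM 1 in 49 cells. U2af2 (chr7:5062143-5079938, plus strand), the large subunit that binds the polypyrimidine tract, spanned 0, 9.28 and 369.6 TPM and was above TPM 1 in 42 cells (95% interval 70.9% to 92.8%). U2af1 was the higher of the 2 in 48 of 50 cells, with a median log2 difference of 4.16. Within the cells that share the first number of their title, the median difference stayed between 3.81 and 4.77. Both genes, together with Sf1, which binds the branch point before U2, were above TPM 1 in 41 cells. Of the 50-base stretches of the U2af1 transcripts, 59.4% also occur in transcripts of other genes, mainly the processed pseudogene Gm10232, and for U2af2 this was 29.9%. U2af1l4, a relative of U2af1, had a median of 52.3 TPM in 50 cells and was above TPM 1 in 38 of them, but 97.2% of its stretches occur in the overlapping gene Gm49396, so its level could not be told apart from that gene. Intervals here are exact Clopper-Pearson intervals for a share of 50 cells and cover counting error over cells only.

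In the U2 particle, the SF3b complex holds the branch point and SF3a joins it to the rest of U2. Sf3b1 (chr1:54985169-55027481, minus strand), the subunit that grips the branch point, had 0, 107 and 222 TPM as its lowest, median and highest values, with 0 in a single cell, cell 4-6. The next lowest cell had 33.5 TPM, so the other 49 cells lay between that value and 222 TPM. Sf3b5, the smallest subunit of the 5, had a median of 272 TPM and Sf3b2 one of 129.8, and both were above TPM 1 in 50 cells. Sf3b4 had a median of 128 TPM and Sf3b3 the lowest of these 5 genes, 32.7 TPM. Of the 50-base stretches of Sf3b4, 51.2% also occur in transcripts of other genes, mainly the processed pseudogene Gm7935. All 5 Sf3b genes were above TPM 1 together in 43 cells.

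The 3 SF3a genes were less even. Sf3a3 had values of 0, 133 and 605 TPM, Sf3a1 had 0, 21.2 and 151 TPM and Sf3a2 had 0, 5.83 and 81.2 TPM. Sf3a3 was above Sf3a2 in 48 cells and above Sf3a1 in 46. All 3 genes were above TPM 1 in 35 cells, against 43 for the 5 Sf3b genes that the name rule matched. Sf3a1 was listed at 0 in 9 cells. Over the 8 Sf3 genes the summed level was 0.0900% of TPM in the median cell.

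The PRPF genes, grouped here by name and with roles at several steps of splicing, were the subfamily with the lowest median level. None of the 13 was above TPM 1 in all 50 cells, beside 7.15% of all rows, and 2, or 15.4%, were in at least 90%, beside 19% of all rows. The median of their median TPM was 21.2. They summed to 0.0545% of TPM in the median cell, from 0.00724% to 0.0874%. The kinase gene Prpf4b was among those 2, in 46 cells with a median of 20.1 TPM.

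Prpf8 (chr11:75486816-75509449, plus strand), the scaffold of the catalytic centre, had values of 0, 24.9 and 95.1 TPM and was above TPM 1 in 42 cells. Prpf6, which bridges the U5 and U4/U6 parts, had a median of 51.5 TPM, and both genes were above TPM 1 in 37 cells. The 3 genes of the U4/U6 particle differed more. Prpf31 had a median of 59.4 TPM and was above TPM 1 in 41 cells, Prpf4 had 11.0 TPM in 30 cells, and Prpf3 had 2.3 TPM in 25 cells (95% interval 35.5% to 64.5%). Only 15 cells had all 3 above TPM 1. Prpf3 spanned 0, 2.3 and 137 TPM, with 21 cells listed at 0, so cells with and without a value stood side by side in the same group.

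Among the remaining PRPF genes, Prpf19, a ubiquitin ligase of the activated spliceosome, spanned 0, 6.73 and 34.5 TPM and was above TPM 1 in 36 cells. Prpf18, a factor of the second catalytic step, was above TPM 1 in 27 cells (95% interval 39.3% to 68.2%) with a median of 4.47 TPM. Prpf38a, a protein of the precatalytic complex, had the largest SD over cells of all 64 members, 2.9 on the log2(TPM + 1) scale, with a median of 87.8 TPM and 8 cells listed at 0. With a pseudocount of 0.1 in place of 1, Prpf3 and U2af1l4 had larger SDs than Prpf38a. Prpf40b had a median of 6.18 TPM and was above TPM 1 in 32 cells, while Prpf38b and Prpf39 had medians of 27.7 and 21.2 TPM.

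SR proteins bind exonic enhancers and recruit the machinery to nearby splice sites. The 10 Srsf genes had a median share of 97% of cells and summed to 0.185% of TPM in the median cell. Srsf5 (chr12:80945504-80950507, plus strand) was the highest, with 106, 574 and 1614 TPM, and in every cell it was above both Srsf4 and Srsf6. Srsf2 spanned 1.22, 272 and 675 TPM, and Srsf1, the founding member of the family, spanned 0, 16.1 and 86.4 TPM. Srsf2 was above Srsf1 in 48 of 50 cells, with a median log2 difference of 3.88.

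Srsf3 and Srsf7, a pair of small and closely related SR proteins, had like levels, with medians of 183 and 201 TPM. They also varied together over the cells, with Spearman's rho of 0.61 over 50 cells, between 0.54 and 0.68 within the first title numbers. Srsf9 and Srsf11 had medians of 116 and 102 TPM, Srsf6 of 66.8 and Srsf10 of 55.3. Srsf4 was the least detected of the family, in 40 cells with a median of 40.7 TPM, and 65.4% of its 50-base stretches also occur in transcripts of other genes, mainly the overlapping gene Gm12992.

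The hnRNPs coat nascent transcripts. Hnrnpk (chr13:58391142-58403343, minus strand), a binder of C-rich RNA, had the highest median of all 64 members, with 31, 1138 and 2007 TPM, and was the highest member in 27 cells. Among the Hnrnp genes, Hnrnpab followed with 46.4, 569 and 1832 TPM, and Hnrnpc, a binder of U tracts, with 2.39, 391 and 1656 TPM. The 18 Hnrnp genes summed to 0.423% of TPM in the median cell. Of them, 8, or 44.4%, were above TPM 1 in all 50 cells, beside 7.15% of all rows.

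Relatives within the hnRNPs differed widely in level. Hnrnpa2b1 and Hnrnpa1, repressors of exon inclusion at many sites, had like medians of 308 and 283 TPM, and Hnrnpa2b1 was the higher in 31 of 50 cells. Hnrnpa3 had a median of 9.00 TPM and was below Hnrnpa2b1 in all 50 cells, and Hnrnpa0 had one of 17.4 TPM. Hnrnpab was above Hnrnpd, a binder of AU-rich elements with a median of 6.87 TPM, in all 50 cells. Hnrnpu, a nuclear scaffold protein, had a median of 208 TPM and was above both Hnrnpul1, at 12.4 TPM, and Hnrnpul2 in all 50 cells. Hnrnpul2 (chr19:8820010-8834143, plus strand) was above TPM 1 in 20 cells, which is 40% (95% interval 26.4% to 54.8%), was listed at 0 in 26, and reached 30.2 TPM in its highest cell.

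Hnrnpf and Hnrnph1, which bind runs of G, had medians of 373 and 146 TPM, followed by Hnrnph2 at 98.7 and Hnrnph3 at 23.9. Hnrnpm had a median of 151 TPM, Hnrnpr of 49.9 and Hnrnpl, a binder of CA repeats, of 47.7. Processed pseudogenes and other copies bear on several of these levels. Over 20% of the 50-base stretches of each of 18 members also occur in transcripts of other genes, Hnrnpf with 67.3% and Hnrnpa1 with 46.4% among them, and how the authors counted such reads is not stated.

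Summed per cell, the members held 1.29% of the TPM of the table in the median cell, from 0.805% to 1.77%, a range of 2.19-fold. Of that sum, a median of 37.2% came from Snrp, 33% from Hnrnp, 14.0% from Srsf, 7.16% from Sf3, 4.3% from Prpf and 2.2% from U2af. The medians over cells of the same first title number were 1.25%, 1.12%, 1.27% and 1.39% for numbers 1 to 4, and they differed by less than the range within each number. What that number stands for is not stated in the labels.

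**Figure D3:**
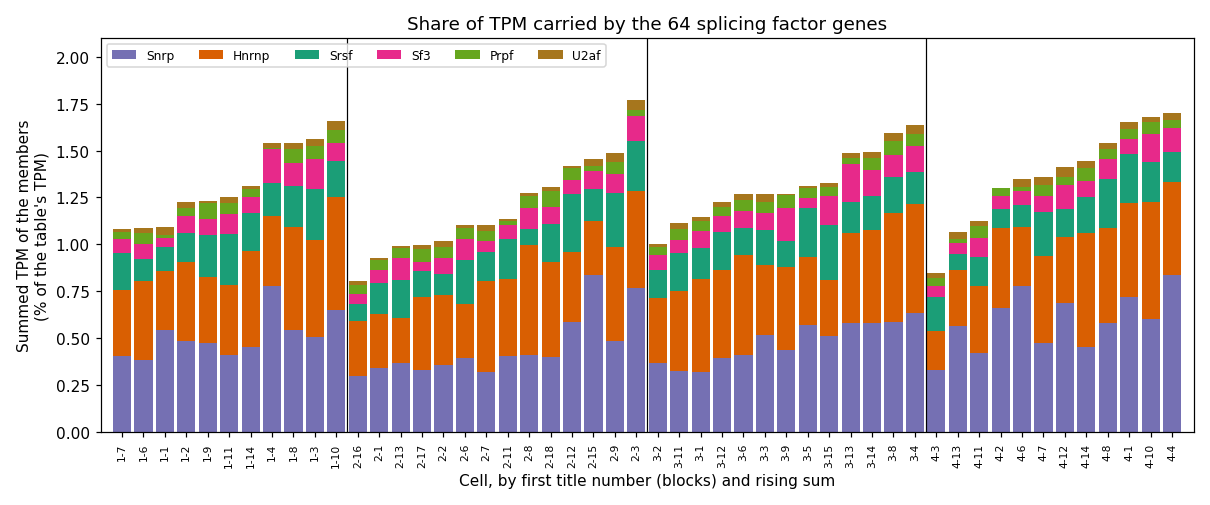
Each bar is 1 cell, stacked by subfamily, and its height is the summed TPM of the 64 genes as percent of the TPM of the table, starting at 0. Cells are in blocks by the first number of their title and rise within a block. The sums run from 0.805% to 1.77%, and Snrp and Hnrnp make up most of each bar.

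A median of 59 of the 64 genes were above TPM 1 per cell, beside a median of 52.4% of all rows. A single cell had all 64 and 21 cells had at least 60. The lowest cell was 4-6 with 38, and the next lowest had 45. This count moved with the number of all rows above TPM 1 in the cell, with Spearman's rho of 0.89 over 50 cells and 0.88 without cell 4-6. Both measures come from the same library, so sequencing depth and RNA content of a cell cannot be told apart from gene use here. In cell 4-6, 11 of 12 Snrp genes and 2 of 13 Prpf genes were above TPM 1, beside 2400 of all 11879 rows. The members' share of that cell's TPM, 1.35%, lay within the range of the other cells. Over the members, 240 of 3200 values, or 7.5%, were listed at 0, beside 42.5% of all values of the table.

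**Figure D4:**
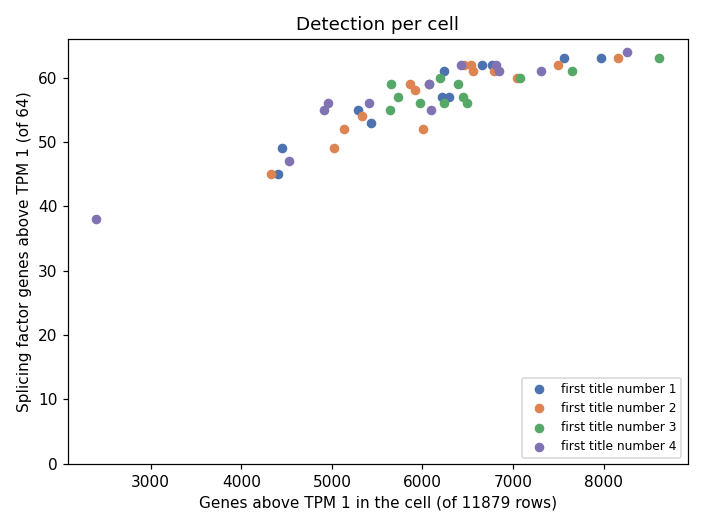
Each point is 1 of the 50 cells, coloured by the first number of its title. The horizontal axis counts all rows above TPM 1 in the cell and the vertical axis counts the splicing factor genes above TPM 1, of 64. The points climb together, and the cell at the lower left has 2400 rows and 38 members.

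The spread of a gene over cells was measured as the SD of log2(TPM + 1). Its median was 1.68 over the 64 members and 1.92 over all rows. Since the SD depends on the level, each gene was also set beside the running median SD of rows with a like mean. For 43 of the 64 members, or 67.2%, the SD was below that line, beside 46.7% of all rows. By subfamily the median SD was 0.83 for Snrp, 1.54 for Hnrnp, 1.59 for Srsf, 1.7 for Sf3, 1.81 for U2af and 2.27 for Prpf. That order follows the unadjusted SD. Set against the line, the median difference was -0.26 for Srsf, -0.24 for Sf3, Prpf and U2af, -0.20 for Snrp and -0.08 for Hnrnp, with 10 of 13 Prpf and 9 of 18 Hnrnp genes below it. Snrpg was the most even member with an SD of 0.57, rank 92 of the 849 rows above TPM 1 in all 50 cells, and Snrpe (0.65), Snrpf (0.71) and Srsf5 (0.71) came next. Farthest below the line for its level was Hnrnpl, with an SD of 1.06, and farthest above it was Prpf38a.

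**Figure D5:**
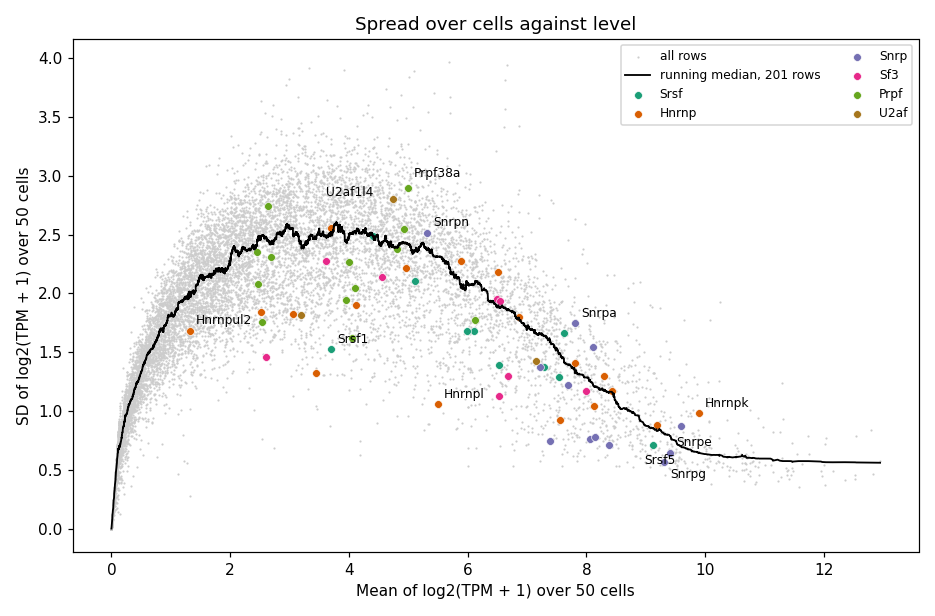
The horizontal axis is the mean and the vertical axis the SD of log2(TPM + 1) over the 50 cells, with 1 grey point per row of the table, members coloured by subfamily, and a black line for the running median of 201 rows. Of the members, 43 lie below the line. Snrpg and Snrpe sit at the lower right and Prpf38a, U2af1l4 and Prpf3 have the largest SDs, from 2.74 to 2.9.

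The members did not vary as a block. Over the 2016 pairs of members, the median Spearman's rho across the 50 cells was 0.094, with the 5th and 95th percentiles at -0.18 and 0.37. Within subfamilies the median was 0.13 and between them 0.087, and after removal of the number of genes per cell it was 0.036 over all pairs. A rho above 0.5 was found for 16 pairs, with Hnrnpu and Srsf4 (0.62), Srsf3 and Srsf7 (0.61) and Hnrnpm and Hnrnpu (0.60) at the top. Over the other 63 members, the median rho of a gene was lowest for Snrpb2 and Sf3b1, both -0.03, and ran up to 0.20 for Hnrnpa2b1. These values are descriptions over cells that share the amplification and the gene count of their library.

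The mean log2(TPM + 1) of 14 genes of cell division, such as Mki67 and Cdk1, had a rho of 0.30 with the members' share of TPM over 50 cells, and the value ran from 0.01 to 0.32 within the first title numbers. By subfamily rho was 0.31 for Sf3, 0.28 for Hnrnp, 0.27 for Snrp, 0.20 for Prpf, 0.20 for U2af and -0.01 for Srsf. Within the first title numbers, rho ran from -0.44 to 0.68 for Prpf, -0.36 to 0.51 for U2af and -0.05 to 0.60 for Hnrnp. For Srsf it ran from -0.29 to 0.13, for Sf3 from 0.08 to 0.52 and for Snrp from 0.07 to 0.38. Between the division genes and the number of genes per cell, rho was 0.38. With that number held fixed, the partial rho was 0.24 over all members, 0.32 for Snrp, 0.21 for Sf3, 0.12 for Hnrnp, 0.10 for U2af, 0.01 for Prpf and -0.07 for Srsf. The part of the division genes in the members' levels was not tested.

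Other genes of the splicing pathway were listed by role, and their counts stand beside 19% of all rows above TPM 1 in at least 90% of cells and 46.8% in under 50%. Of 55 further core spliceosome proteins in the table, 29 exceeded TPM 1 in at least 90% of cells and 1, Snrnp35 of the minor spliceosome, in under 50%. The helicase Ddx5 was the highest of those named here, with a median of 870.2 TPM, and Txnl4a, a U5 protein, had 297 TPM. The U1 protein gene Snrnp70 had 28.2 TPM in 46 cells. Among 12 kinases and relatives of SR proteins, 7 exceeded TPM 1 in at least 90% of cells, with Clk1, which phosphorylates SR proteins, at 149 TPM and Tra2b, a splicing activator, at 121 TPM. The kinase Clk2 was the only one of them under 50%, above TPM 1 in 20 cells.

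In the exon junction complex, which is left on the mRNA after splicing, 4 of 9 genes exceeded TPM 1 in at least 90% of cells, and the core genes Eif4a3, Rbm8a and Magoh had medians of 316, 113 and 144 TPM. Casc3, also of the core, had 9.45 TPM in 38 cells, and Magohb, a copy of Magoh, had 10.1 TPM in 27 cells. Of 24 broadly expressed regulators, 17 reached that share and none was under 50%, with the polypyrimidine tract binder Ptbp1 at 255 TPM. Of 22 tissue-restricted regulators listed, 11 had a row in the table, and of these 1 reached 90% and 8 were under 50%, beside 19% and 46.8% of all rows. Rbm38, a p53 target known from red cell development, was the 1, with 47 cells and a median of 130.5 TPM. Nova1, a neuronal regulator, was above TPM 1 in 1 cell, Nova2 in 10, Rbm24 in 18, Ptbp2 in 31 and Celf2 in 33. The epithelial regulator Esrp2 was above TPM 1 in 0 of 50 cells, with a highest value of 0.763 TPM. That count allows a share of up to 6% if a count of 0 is taken to allow 3 counts. Of 12 genes for the assembly and maturation of the small nuclear ribonucleoproteins, 4 reached 90%, with the SMN partner Gemin7 at 178 TPM and Smn1 at 61.9 TPM, while Gemin4, Gemin5, Gemin8 and Coil were under 50%.

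Length differed between the subfamilies. The longest coding transcript had a median length of 2763 bases over the 64 members, against 3144.5 over all 10820 rows matched to the annotation. By subfamily it was 1046 for U2af, 1204.5 for Snrp, 2510.5 for Srsf, 2908.5 for Hnrnp, 3522 for Prpf and 3531.5 for Sf3, an order that the median levels did not follow. Across the members, length and median TPM had a rho of -0.57, against -0.26 across all matched rows and, within subfamilies, -0.62 across the 12 Snrp genes, -0.45 across the 18 Hnrnp genes and -0.06 across the 13 Prpf genes. These are correlations across genes, which are not independent replicates. TPM is already divided by length, and the part of length in the levels was not tested.

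The promoters of the members were searched for CCGGAAG on either strand, the core of the sites bound by ETS transcription factors, in RefSeq windows on GRCm38.p6 from 250 bases before to 50 bases after a gene's start, which were matched for 56 of the 64 genes. The motif was in the windows of 19 of those 56 genes, or 33.9%, beside 20% of the genes of the table with a window. Counted per window, it was in 31.2% of member windows, 17.0% of windows of table genes and 8.86% of all windows. It was 1 of 6 motifs searched, all on both strands, and was singled out after the counts were seen. The shares in member windows and in windows of table genes were 49.4% and 37.6% for CCAAT, 14.3% and 9.9% for CACGTG, 9.09% and 7.07% for TATAAA, 3.9% and 6.93% for AAGATGG, and 1.3% and 2.09% for the palindromic NRF1 motif. By subfamily the count was 5 of 6 Sf3 genes, 4 of 10 Srsf, 4 of 10 Snrp, 4 of 11 Prpf, 2 of 17 Hnrnp and 0 of 2 U2af. Stretches around the motif are shown for the 5 Sf3 genes that held it, since that subfamily held it most often, and for Snrpe, an even and abundant gene with 2 overlapping matches. Each is printed 5′ to 3′ on the strand of its gene. The match, or both overlapping matches, is in capitals, and CTTCCGG is the same motif on the other strand.
Sf3a1 (chr11:4160337-4160363, plus strand): gagggcgggaCCGGAAGtgctcccgcg
Sf3a2 (chr10:80798649-80798675, plus strand): gcctttgctcCCGGAAGggatcgcttc
Sf3a3 (chr4:124714761-124714787, plus strand): ccccaagacaCTTCCGGgacacgcgga
Sf3b2 (chr19:5295452-5295478, minus strand): gattacgcaaCCGGAAGtttctggaag
Sf3b3 (chr8:110847016-110847042, minus strand): ccggtgggcgCTTCCGGgcttgcgagg
Snrpe (chr1:133610258-133610284, minus strand): ggtcttgCTTCCGGAAGtcgctttccg
The 6 genes printed had unlike levels, from a median of 5.83 TPM for Sf3a2 to 709 TPM for Snrpe, and Sf3b1, at 107 TPM, had no match in its window. A match describes the letters of the window and was not tied to binding or to a level.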

How the data were processed

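Single iHECs were profiled in 50 libraries of 1 group. The authors aligned reads to mm10 and estimated expression as TPM, and the deposited table holds these TPM values per gene and cell. The submitters' processing notes name bcl2fastq, HISAT2 2.1.0, SAMtools 0.1.19 and StringTie 1.3.4. The rule that selected the rows, the treatment of reads shared between genes and the use of strand are not given in the sources used here, and no molecular identifiers are named, so amplified copies count as separate reads. Which sequencer was used is unsettled, because the series text names another than the paper does.

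Each cell's group came from its title. A gene was counted above TPM 1, SDs used log2(TPM + 1) with a pseudocount of 1, shares have exact 95% Clopper-Pearson intervals, and the line of spread was a running median over 201 rows. With 1 group and no replicate named, no test was run. The members and the gene lists were chosen with earlier results of these data known. The rule for named genes took, per subfamily, the 3 of highest median TPM and the 2 found in fewest cells, the 10 most variable of middling detection, and a fixed set of known genes (42 in all). Other members were added after their values were seen. Genes were placed on GRCm38 with GENCODE M21, where 64 of 64 members matched, and shared sequence was counted over stretches of 50 bases. Promoters came from RefSeq on GRCm38.p6. The values of 1 member are not reported here, though it is kept in the counts and summaries. Alternatives were TPM levels of 0, 5 and 10, a pseudocount of 0.1, a filter on low rows, rescaling without ribosomal protein rows, and leaving out cells or title numbers. Python 3.11.15, pandas 2.3.3, numpy 2.4.6 and scipy 1.17.1 were used, and the code was tested on simulated data.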

Additional observations from a re-analysis of the deposited data

How the results depend on the processing

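No paired analysis was possible because all 50 cells were in 1 group. The count of members above the level in at least 90% of cells ran from 34 to 48 over the levels, against 41, while the share of all rows ran from 13.8% to 25.9%, against 19%. It was 44 without the 7 cells under 5000 genes. Members in under 50% of cells were 3 above TPM 5 and 9 above TPM 10, against 1, beside 53.3%, 58% and 46.8% of all rows. That count was 0 once members with a median TPM under 10 were left out, and 1 to 2 when the cells of 1 first title number at a time were left out. The median TPM over members was 118 after rescaling without 85 ribosomal protein rows and 129.8 without the low members, against 100.8. The share of TPM was 1.5% after that rescaling, against 1.29%. The median SD was 2.22 with a pseudocount of 0.1, against 1.68. Among single genes, the share of cells above TPM 10 was 46% for U2af2, 36% for Prpf19, 30% for Sf3a2, 16% for Hnrnpul2, 40% for Hnrnpd and 40% for Prpf40b, against 84%, 72%, 84%, 40%, 70% and 64% above TPM 1. Srsf1 was above TPM 10 in 32 cells and Sf3a1 in 30, against 45 and 38 above TPM 1. Of 42 single genes, these 8 had a share that fell below its 95% interval. With the pseudocount of 0.1, 19 of 42 SDs were larger by more than their spread over the first title numbers. The remaining values of the results over all members moved by less than that spread or, for counts, by less than 1.5 times. Depth is unknown, so a value of 0 was given only as listed at 0.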
